A study of Mus musculus with 8 samples.

Results

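The genes described here are 10 genes of the keratinocyte differentiation programme, followed across all 8 RNA-seq libraries of the series: Sprr1a, Ivl, Sbsn, Dmkn, Flg and Perp, and the keratins Krt1, Krt10, Krt5 and Krt14. They were found by symbol in the deposited count table, which listed 50578 genes, and all 10 were present once. They had been chosen by their counts in these 8 libraries, differences between treated and untreated cells included. Their levels, their fold changes and the counts of them past a threshold are therefore given as a description and support nothing.

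The libraries were made from mouse embryonic fibroblasts (MEFs), wild-type cells that per the methods came from C57BL/6J embryos at E13.5 and were used at passages 3 to 5. Of the libraries, 2 were from MEFs without a molecule (the MEF group), 2 from MEFs given Carbidopa, 2 from MEFs given CHIR-99021 and 2 from MEFs given LY-364747, each at 10 µM in the labels. Carbidopa inhibits aromatic-L-amino-acid decarboxylase. CHIR-99021 inhibits the kinase GSK3 and so activates Wnt signaling. LY-364747 is the spelling in the labels, and the methods write LY-364947, an inhibitor of the TGF-beta receptor. The 3 treated groups carry the label hepatic-like cells. The MEF cultures were prepared from the minced trunk left after head, tail, limbs and internal organs had been taken away, so the starting material was not sorted for 1 cell type, and skin is not among the tissues named as removed. The methods state a length of treatment for the PCR assay and none where they describe the RNA-seq, and the sources used here do not say whether the libraries of a group came from separate embryos or cultures. Any p-value below therefore measures only the spread between these libraries.

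Keratinocytes of the basal layer of the epidermis build their intermediate filaments from the paired keratins KRT5 and KRT14. When they leave that layer they switch to KRT1 and KRT10. In the upper layers the processed products of filaggrin (FLG) bundle keratin filaments, and transglutaminases cross-link involucrin (IVL), loricrin and small proline-rich proteins such as SPRR1A into a cornified envelope beneath the cell membrane. Suprabasin (SBSN) and dermokine (DMKN) are secreted by differentiating keratinocytes, and PERP is a membrane protein of desmosomes, the junctions to which keratin filaments attach. The 4 keratins are proteins of epithelia that fibroblasts do not usually make.

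The positions of these genes in GRCm38 (mm10) fall into a few neighbourhoods. Sprr1a (chr3:92483952-92485895, minus strand), Ivl (chr3:92570902-92573735, minus strand) and Flg (chr3:93273523-93293686, plus strand) belong to the epidermal differentiation complex, a cluster of genes of the cornified layer. Sprr1a and Ivl were 85007 bp apart, and Ivl and Flg 699788 bp. Sbsn (chr7:30751471-30756134) and Dmkn (chr7:30763756-30781063) were neighbours on the plus strand with 7622 bp between them. Krt10 (chr11:99385254-99389364) and Krt14 (chr11:100203162-100207548) lie in the type I keratin cluster, and Krt1 (chr15:101845426-101850794) and Krt5 (chr15:101707070-101712898) in the type II keratin cluster, all on the minus strand. Perp (chr10:18845020-18857073, plus strand) stands alone.

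The promoters of Sprr1a, Ivl, Flg and Dmkn are shown because they share a short motif. The window of Sbsn, not shown, holds it too. Those of Krt5, Krt10 and Krt14 do not, and the window of Krt14 has a limit given below. RefSeq promoter windows on GRCm38.p6 were found for 8 of the 10 genes, all but Krt1 and Perp. The 250 bases before the start site are written 5′ to 3′ on the strand of the gene, with capitals for matches to TGANTCA, the AP-1 motif, and to TATAAA, the TATA box motif. The windows are chr3:92485882-92486131 for Sprr1a, chr3:92573736-92573985 for Ivl, chr3:93273296-93273545 for Flg and chr7:30763506-30763755 for Dmkn, where the first of its listed start sites was taken.
Sprr1a: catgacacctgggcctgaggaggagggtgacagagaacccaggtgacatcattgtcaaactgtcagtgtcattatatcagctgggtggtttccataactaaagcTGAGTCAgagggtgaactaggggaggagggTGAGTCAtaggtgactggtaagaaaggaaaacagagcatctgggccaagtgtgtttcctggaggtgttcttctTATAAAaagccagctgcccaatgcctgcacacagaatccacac
Ivl: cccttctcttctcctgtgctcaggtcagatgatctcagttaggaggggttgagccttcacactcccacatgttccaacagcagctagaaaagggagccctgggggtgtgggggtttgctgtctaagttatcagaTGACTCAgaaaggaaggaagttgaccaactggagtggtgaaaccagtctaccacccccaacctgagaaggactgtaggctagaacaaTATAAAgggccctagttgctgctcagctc
Flg: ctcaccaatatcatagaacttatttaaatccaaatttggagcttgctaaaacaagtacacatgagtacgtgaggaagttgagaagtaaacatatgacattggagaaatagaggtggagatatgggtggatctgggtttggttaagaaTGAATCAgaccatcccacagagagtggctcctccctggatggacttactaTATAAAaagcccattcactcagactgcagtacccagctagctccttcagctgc
Dmkn: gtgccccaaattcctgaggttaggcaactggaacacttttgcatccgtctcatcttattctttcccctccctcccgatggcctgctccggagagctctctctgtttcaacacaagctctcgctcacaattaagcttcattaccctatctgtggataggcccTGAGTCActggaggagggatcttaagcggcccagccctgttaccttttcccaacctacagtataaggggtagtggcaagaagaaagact

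Both strands were searched, and the motifs do not overlap each other. TGANTCA was found in 5 of the 8 windows, against 6.75% of the 32851 windows of the same length in the table. Sprr1a held it at 2 places, from -146 to -140 and from -116 to -110 relative to the start. In Ivl it stood from -116 to -110, in Sbsn from -119 to -113, in Flg from -103 to -97 and in Dmkn from -89 to -83. Krt5, Krt10 and Krt14, whose levels also differed between groups, had no match in their windows. The Krt14 window (chr11:100206031-100206280) lies inside the gene at the position given above, chr11:100203162-100207548 on the minus strand. The bases before that annotated start were therefore not searched for Krt14. TATAAA was found in Sprr1a, Ivl, Flg and Krt10, with its first base between -53 and -26, and in 12.4% of all windows. The GC box motif GGGCGG was in none of the 8 windows and in 32.7% of all windows. A match is a description of the letters, and binding of any factor was not measured.

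**Figure D1:**
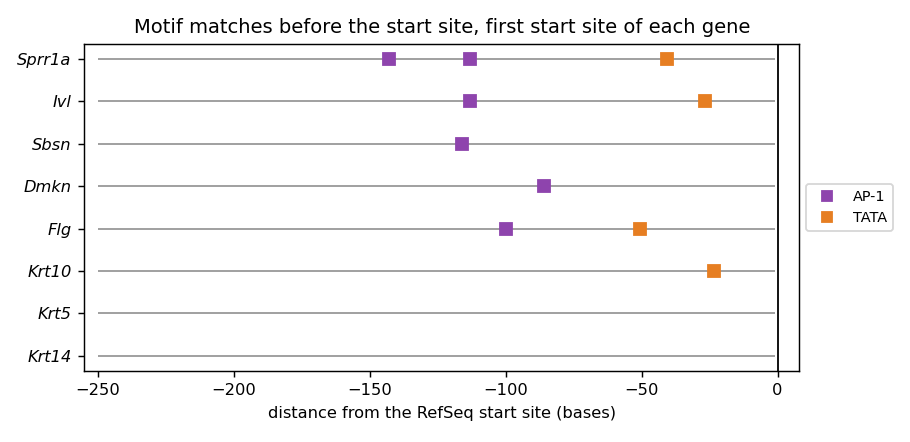
Motif matches in the 250 bases before the RefSeq start site of 8 genes, with the distance from the start site in bases on the horizontal axis. Squares mark matches to the AP-1 and TATA motifs, and the 5 genes with an AP-1 match hold it between -146 and -83. The windows of Krt5 and Krt14 hold neither motif, and that of Krt14 lies inside the gene at its position given above.

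The libraries held 15039566 to 20504338 counts, and 15154 genes passed the filter on low counts. All 10 genes passed, but Krt1, Flg, Dmkn, Krt5 and Krt14 passed only through their reads in the carbidopa libraries. The carbidopa libraries stood apart as a pair: they differed by a chi-square of 37.9 per degree of freedom over genes, against 4.57 to 10.0 in the other groups, so values are given for each of them. The 12 fibroblast markers were read in every library. Their summed level was 36907 to 37331 counts-per-million (CPM) in MEF and 8674 to 12334 CPM in the treated libraries. In the fit over all genes, 10 of the 12 were called lower than MEF with each molecule, and 1, Pdgfra, was called higher. Its log2 fold change was 0.49 with carbidopa, 0.64 with CHIR-99021 and 0.36 with LY-364747. The shares of all genes called are given below. None of the 15 hepatocyte markers passed the filter in these cells labelled hepatic-like, and their summed level was 1.03 to 1.74 CPM in all 8 libraries. The 10 general epithelial markers summed to 0.372 to 1.94 CPM in MEF, 2.07 to 2.33 CPM with carbidopa, 4.82 to 5.76 CPM with CHIR-99021 and 2.02 to 2.36 CPM with LY-364747. Of their defining genes, Cdh1 (E-cadherin) had 0 reads in both MEF libraries and 0 to 4 in the treated ones, and Epcam 0 reads in MEF and 2 to 6 in the treated ones. The 10 macrophage markers were read in every library and summed to 1067 to 1108 CPM in MEF, 315 to 333 CPM with carbidopa, 78.3 to 86.1 CPM with CHIR-99021 and 237 to 242 CPM with LY-364747. The part of these marker levels in the results below was not tested. In bulk RNA, a change in the number of cells of a type cannot be told apart from a change in RNA per cell. Since the 10 genes are themselves genes of keratinocytes, this holds for the number of keratinocytes in each culture, which was not measured.

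The 10 genes fell into groups by their levels. Sprr1a and Ivl were many-fold higher with all 3 molecules than in MEF. Krt1, Krt5, Krt14, Flg and Dmkn were read in the carbidopa libraries and at 0 to 2 reads in each of the other 6, and Krt10 was several-fold higher with carbidopa than in any other group. Sbsn and Perp were read in every library and differed less between groups, with group means of 3.05 to 5.81 CPM for Sbsn and 96.1 to 135 CPM for Perp. All levels below are TMM-normalized CPM, given as the mean of the 2 libraries of a group with the SD.

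**Figure D2:**
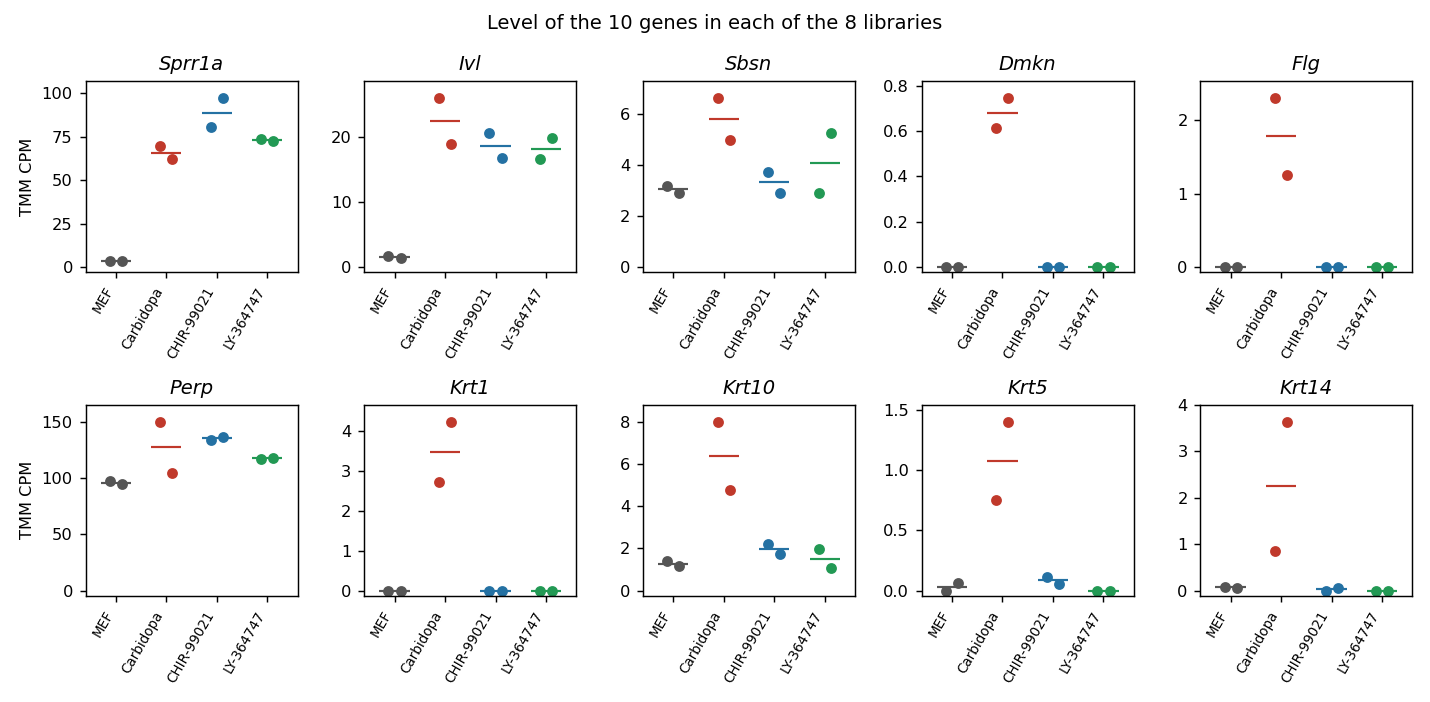
Level of each of the 10 genes in each library, in TMM-normalized CPM on a linear axis that differs between panels. Points are libraries and lines are the means of the 2 libraries of a group: Sprr1a and Ivl are high in all 6 treated libraries, and Krt1, Flg and Dmkn are above 0 only in the carbidopa libraries.

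Of the envelope precursors, Sprr1a was read 44 and 57 times in the MEF libraries, 1474 and 1329 times with carbidopa, 1395 and 1675 times with CHIR-99021, and 1315 and 1360 times with LY-364747. Every treated library was above both MEF libraries. The level was 3.47 ± 0.287 CPM in MEF (SD, n = 2), and 65.7 ± 5.22 with carbidopa, 73.1 ± 0.980 with LY-364747 and 88.8 ± 11.9 with CHIR-99021. These are 18.9-fold, 21-fold and 25.5-fold the MEF level. The fitted log2 fold changes against MEF were 4.23 (SE 0.16), 4.39 (SE 0.16) and 4.67 (SE 0.16). Among the treatments the order was CHIR-99021, LY-364747, carbidopa. The libraries of neighbouring treatments did not overlap, but their gaps were smaller than the distance between the 2 carbidopa or the 2 CHIR-99021 libraries.

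Ivl, the gene of involucrin, was read 23 and 22 times in MEF, 552 and 404 times with carbidopa, 357 and 288 times with CHIR-99021, and 296 and 372 times with LY-364747. The treated libraries lay above both MEF libraries and overlapped each other. The level was 1.56 ± 0.206 CPM in MEF, 22.4 ± 5.05 with carbidopa, 18.6 ± 2.72 with CHIR-99021 and 18.2 ± 2.26 with LY-364747 (SD, n = 2 each). The ratio to MEF was 14.3-fold, 11.9-fold and 11.6-fold, and the 3 treatments differed by less than the spread of the carbidopa libraries. Per kilobase of exon, Sprr1a with carbidopa stood at 81.5 CPM and Ivl at 11.7 CPM, and with CHIR-99021 at 110 and 9.70 CPM.

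Of the secreted proteins, Sbsn was read 43 and 45 times in MEF, 141 and 107 times with carbidopa, 65 and 50 times with CHIR-99021, and 52 and 99 times with LY-364747. Its level was 3.05 ± 0.208 CPM in MEF, 5.81 ± 1.16 with carbidopa, 3.32 ± 0.595 with CHIR-99021 and 4.10 ± 1.66 with LY-364747. Carbidopa was the treatment with both libraries above both MEF libraries, and 1 of the LY-364747 libraries reached into their range. The log2 fold change of carbidopa against MEF was 0.93 (SE 0.30), and 0.71 without carbidopa replicate 1. Sbsn shares 5.86% of its 75-base words with Tmem147os, a gene that overlaps it on the same strand, so some of its reads may belong to that gene.

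Dmkn, the neighbour of Sbsn, was read 13 and 16 times with carbidopa and had 0 reads in the other 6 libraries. Its carbidopa level was 0.679 ± 0.0951 CPM. With 3 reads per library as the limit that a count of 0 allows, this was at least 3.26-fold higher than MEF, 3.92-fold higher than CHIR-99021 and 4.14-fold higher than LY-364747. Such limits cover counting error only.

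Flg was read 49 and 27 times in the carbidopa libraries and not once in the other 6. Its level was 1.78 ± 0.740 CPM, at least 8.56-fold higher than MEF, 10.3-fold higher than CHIR-99021 and 10.9-fold higher than LY-364747. The gene encodes a chain of near-identical repeats, and 75.2% of the 75-base words of its longest transcript occur there more than once. How the counting treated reads with several matches is not given in the sources used here, so its level relative to other genes is uncertain.

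Perp had the smallest fold range over the 4 groups among the 10 genes. It was read 1305 and 1474 times in MEF, 3191 and 2248 times with carbidopa, 2333 and 2351 times with CHIR-99021, and 2082 and 2219 times with LY-364747. The level was 96.1 ± 1.37 CPM in MEF, 118 ± 0.924 with LY-364747, 128 ± 32.1 with carbidopa and 135 ± 1.49 with CHIR-99021. All treated libraries were above both MEF libraries, and the carbidopa libraries spanned the range of the other treatments. The log2 fold change against MEF was 0.41 (SE 0.15) with carbidopa, 0.49 (SE 0.15) with CHIR-99021 and 0.29 (SE 0.15) with LY-364747. Without carbidopa replicate 1 the first of these was 0.13. Perp is thus a gene that MEFs already expressed, at 49.2 CPM per kilobase against 4.31 for Sprr1a and 0.814 for Ivl.

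**Figure D3:**
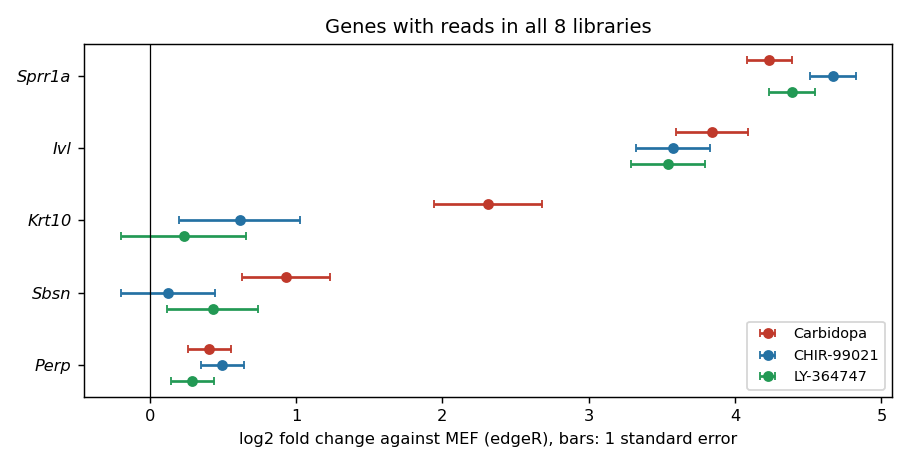
Log2 fold changes against MEF from edgeR for the 5 genes read in all 8 libraries, with bars of 1 standard error. Sprr1a and Ivl lie between 3.54 and 4.67 with all 3 molecules, and Krt10 lies at 2.31 with carbidopa and at 0.61 and 0.23 with CHIR-99021 and LY-364747.

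Of the keratins of differentiating cells, Krt1 was read 58 and 91 times with carbidopa and had 0 reads in the other 6 libraries. Its level was 3.49 ± 1.07 CPM, at least 16.7-fold higher than MEF, 20.1-fold higher than CHIR-99021 and 21.3-fold higher than LY-364747. Krt10, its filament partner, was read 170 and 102 times with carbidopa, and also 19 and 18 times in MEF, 38 and 30 times with CHIR-99021, and 35 and 20 times with LY-364747. Both carbidopa libraries were above all others. The level was 6.38 ± 2.29 CPM with carbidopa, 1.96 ± 0.316 with CHIR-99021, 1.51 ± 0.636 with LY-364747 and 1.29 ± 0.178 in MEF. The log2 fold change was 2.31 (SE 0.37) for carbidopa against MEF, -1.70 (SE 0.34) for CHIR-99021 against carbidopa and -2.08 (SE 0.35) for LY-364747 against carbidopa. LY-364747, whose libraries overlapped MEF, stood at 0.23 against MEF. Krt10 was read in 6 libraries in which its partner Krt1 was not.

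Of the basal keratins, Krt5 was read 16 and 30 times with carbidopa, 0 and 1 times in MEF, 2 and 1 times with CHIR-99021 and not with LY-364747. The ratio of pooled reads per library size was 31.2 for carbidopa against MEF, with an exact 95% interval from 5.33 to 1259 that covers counting error only. Its partner Krt14 was read 18 and 78 times with carbidopa, once in each MEF library, once in 1 CHIR-99021 library and not with LY-364747. The ratio for carbidopa against MEF was 32.6, with an interval from 8.77 to 273. Both carbidopa libraries were above every other library for both genes, and the levels were 1.08 ± 0.457 CPM for Krt5 and 2.24 ± 1.97 CPM for Krt14. Against LY-364747, carbidopa was at least 6.56-fold higher in Krt5 and 13.7-fold higher in Krt14. Krt5 shares 5.18% of its 75-base words with other genes, most with Krt6a, and Krt14 shares 5.71% with Krt16, so a few of their reads could come from those keratins.

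Per kilobase of exon, the carbidopa levels of the 4 keratins were 3.02 CPM for Krt10, 1.28 for Krt14, 0.790 for Krt1 and 0.490 for Krt5. All 4 lay far below Perp at 65.3 and Sprr1a at 81.5 in the same libraries. Over the 54 keratin genes of the table, the summed level was 44.3 and 43.5 CPM with carbidopa, 9.03 and 11.2 CPM in MEF, 25.1 and 28.4 CPM with CHIR-99021 and 21.8 and 23.2 CPM with LY-364747.

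In the fit over all genes, the 10 genes were all past an adjusted p of 0.05 and higher with carbidopa than in MEF, where 18.0% of the 15154 genes tested were called higher. With CHIR-99021, 3 of the 10 were called higher (Sprr1a, Ivl and Perp) beside 18.7% of all genes. With LY-364747, 2 were called higher (Sprr1a and Ivl) beside 13.7% of all genes. Since these contrasts were known when the genes were picked, nothing is read from the shares. Some calls ended under an alternative. Perp, at the edge of the threshold with carbidopa, lost its call with RLE size factors, in the fit of the compared groups alone, and in the separate fit with a replicate block. Perp also lost it when any 1 library other than carbidopa replicate 2 was left out. Flg and Krt1 lost theirs by DESeq2. For the carbidopa contrast their median, on the log2 scale, came to 4.47 as fitted and to 3.47 with the 5 genes at 0 to 2 pooled MEF reads set to their bound or ratio, against 0.037 over all genes tested. The carbidopa count was 6 without MEF replicate 2 and 5 with a filter of 10 counts in every library, which leaves only 5 of the genes in the test. Libraries did not overlap and were higher than MEF for 10 genes with carbidopa (35.6% of all genes), 4 with CHIR-99021 (40.4%) and 3 with LY-364747 (37.6%). The 3 comparisons share the MEF libraries.

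Between treatments, CHIR-99021 was called lower than carbidopa in 6 of the 10 genes (Dmkn, Flg, Krt1, Krt10, Krt5 and Krt14), beside 8.08% of all genes, and higher in 1 (Sprr1a, log2 fold change 0.43, SE 0.12), beside 6.62%. All but Krt10 of these 6 passed the filter through their carbidopa reads alone, so nothing is read from these shares either. By DESeq2, 2 of the 10 genes were called in this comparison. None of the 10 was called by edgeR between LY-364747 and carbidopa, a comparison in which 0.0132% of all genes were called in either direction. In that comparison, 6 of the 10 and 1367 of all genes had an unadjusted p under 0.05, and DESeq2 called 2 of the 10. Between CHIR-99021 and LY-364747 none was called, beside 14.1% of all genes, 1 of the 10 had an unadjusted p under 0.05 and DESeq2 called none.

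The 2 carbidopa libraries differed from each other in which of these genes stood higher. Replicate 2 was higher in Krt14 (4.29-fold in CPM), Krt5 (1.86-fold), Krt1 (1.55-fold) and Dmkn (1.22-fold). Replicate 1 was higher in Flg (1.83-fold), Krt10 (1.68-fold), Perp (1.43-fold), Ivl (1.38-fold), Sbsn (1.33-fold) and Sprr1a (1.12-fold). Of the reads on the 4 keratins, the basal pair Krt5 and Krt14 took 34 of 262 in replicate 1, or 13% (exact 95% interval 9.16 to 17.7), and 108 of 301 in replicate 2, or 35.9% (30.5 to 41.6). These intervals cover counting error only, and this pair of libraries differed by more than counting error over all genes as well.

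How many genes had the pattern of Krt1, Dmkn and Flg was counted after their values had been seen. Of all 50578 genes, 3 had at least 10 reads in both carbidopa libraries and 0 reads in the other 6, and these were Krt1, Dmkn and Flg themselves. No gene was found in the same way for MEF, CHIR-99021 or LY-364747. With up to 3 reads allowed in each other library, 9 genes qualified for carbidopa, 31 for MEF and 0 for CHIR-99021 and LY-364747. The 9 were Krt1, Dmkn, Flg, Krt5, Krt14, Lor, Pkp1, Calm4 and Tmem254c. Lor encodes loricrin, the main protein of the cornified envelope, and Pkp1 encodes plakophilin 1, a desmosomal plaque protein of stratified epithelium.

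The same was asked of 147 other genes of the epidermal programme, in lists of envelope precursors, cross-linking enzymes and proteases, epidermal keratins, desmosomal and basal adhesion proteins, transcription factors and lipid barrier enzymes. With at least 5 reads in a library of the group and no more than 3 in each library of the others, 19 of the 147 genes (12.9%) were found for carbidopa, beside 0.480% of all genes. For MEF it was 2 genes (1.36%, beside 0.538% of all genes), and for CHIR-99021 and LY-364747 none, beside 0.259% and 0.522% of all genes. Carbidopa replicate 2 gave all 19 when used alone, beside 0.291% of all genes, and carbidopa replicate 1 alone gave 6 (4.08%), beside 0.229%. This count, too, was made after values had been seen and has no test.

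Genes of this group with reads in both carbidopa libraries included Lor (15 and 10 reads), Pkp1 (11 and 16), Rptn (6 and 24), Asprv1 (6 and 12), Hrnr (7 and 7) and Krtdap (6 and 6). Rptn and Hrnr encode repetin and hornerin, relatives of filaggrin, and Asprv1 encodes a protease that processes profilaggrin. Others were read almost only in carbidopa replicate 2, among them the keratins of hyperproliferative and wounded epidermis. Krt6a had 0 reads in replicate 1 and 53 in replicate 2, Krt6b 0 and 40, Krt16 1 and 44, and Krt17 1 and 6. Sprr1b, a close relative of Sprr1a, had 0 and 15 reads. In the other 6 libraries Krt6a, Krt6b, Krt16 and Krt17 had 0 reads. Trp63, the gene of the transcription factor p63 that defines basal keratinocytes, had 1 and 4 reads with carbidopa, 1 and 0 in MEF and none in the other 4 libraries. It was singled out after its values had been seen.

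**Figure D4:**
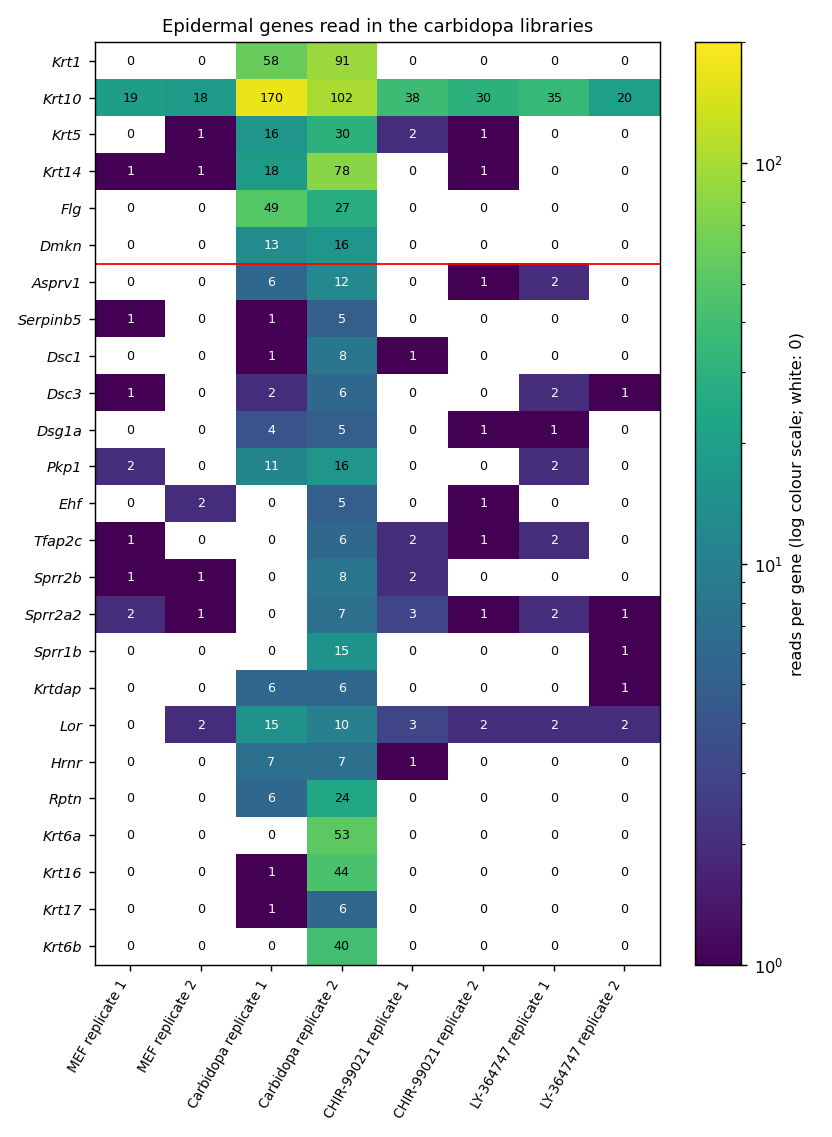
Reads per gene in the 8 libraries for 6 of the 10 genes (above the red line) and for 19 other epidermal genes with at least 5 reads in a carbidopa library and at most 3 in every library of the other groups (below it). Colour follows a log scale and white is 0 reads: Krt6a, Krt6b and Krt16 have 40 to 53 reads in carbidopa replicate 2 and 0 or 1 in every other library.

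Other genes of the pathway were taken from lists. Those that passed the filter on low counts were tested in the same fit by edgeR's quasi-likelihood test with Benjamini-Hochberg adjustment over all genes, and in most lists the larger part did not pass the filter. Beside each count stand the shares of all genes called lower than MEF, 19.7% with carbidopa, 20.1% with CHIR-99021 and 17.2% with LY-364747, and the shares called higher that are given above. The median log2 fold change of all genes was 0.037, 0.043 and 0.028 in the same order. Of 51 other envelope precursors 7 were tested. The 44 others summed to 18 and 28 reads in MEF, 79 and 120 with carbidopa, 26 and 17 with CHIR-99021 and 11 and 16 with LY-364747. With carbidopa 1 of the 7 was higher than MEF and 3 were lower, and the counts were the same with CHIR-99021 and with LY-364747. The median log2 fold change of the 7 was -0.45, -0.30 and -0.61 with carbidopa, CHIR-99021 and LY-364747. With 1 library left out, 1 to 3 were higher with carbidopa, and 3 were so without carbidopa replicate 1 or any CHIR-99021 or LY-364747 library. With carbidopa, 2 to 4 were then lower. Sprr2k, another small proline-rich gene of the complex, was read 218 and 259 times in MEF, 74 and 118 times with carbidopa, 82 and 98 times with CHIR-99021, and 71 and 61 times with LY-364747. Its log2 fold change was -1.87 with carbidopa (SE 0.22, adjusted p = 0.000102), -1.66 with CHIR-99021 (SE 0.22, adjusted p = 0.000231) and -2.19 with LY-364747 (SE 0.23, adjusted p = 4.6e-05). Sprr3, which lies between Sprr2k and Sprr1a, fell as well, from 55 and 81 reads in MEF to 24 to 35 reads in the 6 treated libraries. Anxa1, an abundant envelope component that fibroblasts also express, fell by 0.45, 1.00 and 0.61 on the log2 scale with carbidopa, CHIR-99021 and LY-364747. The gene that rose was Tchh, trichohyalin of the hair follicle, with 51 and 64 reads in MEF, 414 and 293 with carbidopa, 380 and 225 with CHIR-99021 and 198 and 282 with LY-364747 (adjusted p = 0.000377, 0.000288 and 0.00144). Tchh falls outside the rule for named genes and was added after its values had been seen.

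Of the 18 cross-linking enzymes and proteases, 6 were tested. With carbidopa 2 were higher and 2 lower than MEF, with CHIR-99021 4 and 1, and with LY-364747 2 and 2. The median of the 6 was 0.71, 0.94 and 0.66. With 1 library left out, 2 to 4 were higher with CHIR-99021 (2 without MEF replicate 2 or CHIR-99021 replicate 1), 0 to 1 lower with it, and 1 to 2 lower with each of the others. Klk8, a serine protease of the upper epidermis, was read 131 and 126 times in MEF and 1929 to 3461 times in each treated library. Its log2 fold change was 4.07 (SE 0.14, adjusted p = 1.76e-08) with carbidopa, 4.21 (SE 0.14, adjusted p = 2.07e-08) with CHIR-99021 and 3.65 (SE 0.14, adjusted p = 3.74e-08) with LY-364747. Tgm5, a transglutaminase that cross-links envelope proteins, had 0 reads in both MEF libraries and 11 to 20 in each treated library. Its treated levels were at least 3.83-fold, 3.47-fold and 4.44-fold higher than MEF with carbidopa, CHIR-99021 and LY-364747 (adjusted p = 0.00129, 0.00166 and 0.000999). Casp14, the caspase of cornification, was read 22 and 33 times in MEF, 15 and 14 times with carbidopa and 5 and 7 times with LY-364747, and fell with both (adjusted p = 0.0116 and 0.00123). With CHIR-99021 it was read 23 and 19 times (adjusted p = 0.184). Tgm1 and Tgm3, the other main transglutaminases of the epidermis, had no more than 5 reads in any library.

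Among the 28 keratinocyte transcription factors, 16 were tested, of which 1 rose and 6 fell with carbidopa, 2 rose and 6 fell with CHIR-99021, and 1 rose and 7 fell with LY-364747. The median of the 16 was -0.46, -0.23 and -0.60. With 1 library left out, 1 to 4 rose with carbidopa (4 without carbidopa replicate 2), and 3 to 6, 3 to 6 and 4 to 9 fell with carbidopa, CHIR-99021 and LY-364747, the fewest without MEF replicate 1 and, for CHIR-99021, equally few without MEF replicate 2 or CHIR-99021 replicate 1. Gata3, a factor of epidermal and other lineages, was read 45 and 61 times in MEF and 568 to 781 times in each treated library. Its log2 fold change was 2.91 (SE 0.14, adjusted p = 1.41e-07) with carbidopa, 3.62 (SE 0.14, adjusted p = 3.24e-08) with CHIR-99021 and 3.09 (SE 0.14, adjusted p = 9.45e-08) with LY-364747. Maf, a factor of late keratinocyte differentiation that macrophages also use, fell with all 3 molecules. Its log2 fold change was -0.78, -1.90 and -1.0 with carbidopa, CHIR-99021 and LY-364747. The summed macrophage markers given above were also lowest with CHIR-99021 and, among the treated groups, highest with carbidopa, and their part in these values was not tested.

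Junction genes moved in both directions. Of 13 desmosomal partners of Perp 4 were tested, and 3 were lower with carbidopa, 1 higher and 1 lower with CHIR-99021 and 1 lower with LY-364747, with medians of -0.61, 0.44 and -0.46. With 1 library left out, 0 to 3 were lower with LY-364747 (3 without either carbidopa library) and 0 to 1 lower with CHIR-99021. Jup, the gene of plakoglobin, fell with all 3 molecules, by 0.62, 0.31 and 0.45 on the log2 scale (adjusted p = 0.000627, 0.0258 and 0.00519). Pkp2 fell by 0.60 with carbidopa (adjusted p = 0.0195) and rose by 0.80 with CHIR-99021 (adjusted p = 0.00315). Dsp, desmoplakin, fell by 0.86 with carbidopa (adjusted p = 0.0159). Of 7 basal adhesion genes 6 were tested, with 1 higher and 3 lower for carbidopa, 1 and 2 for CHIR-99021 and 0 and 1 for LY-364747, and medians of -0.73, -0.95 and -0.95. With 1 library left out, 1 to 2 were lower with carbidopa and with CHIR-99021, and 0 to 1 higher with LY-364747. The integrin gene Itga6 fell by 1.46, 1.23 and 1.1 on the log2 scale with carbidopa, CHIR-99021 and LY-364747. The laminin gene Lamb3, at 10 and 11 reads in MEF and 0 to 5 in the treated libraries, fell with carbidopa and CHIR-99021 (adjusted p = 0.0217 and 0.0167).

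Of the 13 lipid barrier enzymes 3 were tested, and with each molecule 1 was higher and 1 lower than MEF, with medians of -0.35, -0.30 and -0.0065. Elovl4, which makes very long fatty acids for skin ceramides, rose by 1.53, 1.59 and 1.29 on the log2 scale with carbidopa, CHIR-99021 and LY-364747, and Ugcg, a glucosylceramide synthase, fell by 0.94, 0.99 and 0.89. Aloxe3, an epidermal lipoxygenase, was at 1.18 to 2.36 CPM in all 8 libraries and was not called. Of 17 other epidermal keratins, Krt80 alone passed the filter, with 17 and 24 reads in MEF, 6 and 8 with carbidopa, 15 and 17 with CHIR-99021 and 1 and 7 with LY-364747. It fell with carbidopa (adjusted p = 0.014) and LY-364747 (adjusted p = 0.00717). The carbidopa call was lost without either MEF library or carbidopa replicate 1, and the LY-364747 call without MEF replicate 2 or LY-364747 replicate 1. The 16 others summed to 12 and 148 reads in the carbidopa libraries and to 0 to 4 in each other library, and 3 of the list were called higher with carbidopa once carbidopa replicate 1 was left out. Keratins of simple epithelia gave another picture: of 5 genes 4 were tested, with 2 higher and 1 lower for carbidopa, 3 and 1 for CHIR-99021 and 2 and 1 for LY-364747, and medians of 1.79, 1.86 and 1.14. Krt20 was read 27 and 24 times in MEF and 172 to 233 times in each treated library, and Krt19 43 and 36 times in MEF and 105 to 408 times in each treated library, and both rose with all 3 molecules. Krt18 rose with CHIR-99021 (2.37, SE 0.40, adjusted p = 0.00101). Krt7, named after its values had been seen, went the other way, with 27 and 18 reads in MEF and 0 to 6 in each treated library (adjusted p = 0.00249, 0.00627 and 0.0233 with carbidopa, CHIR-99021 and LY-364747), and its LY-364747 call was lost without any 1 of the MEF or LY-364747 libraries, its CHIR-99021 call without MEF replicate 1.

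**Figure D5:**
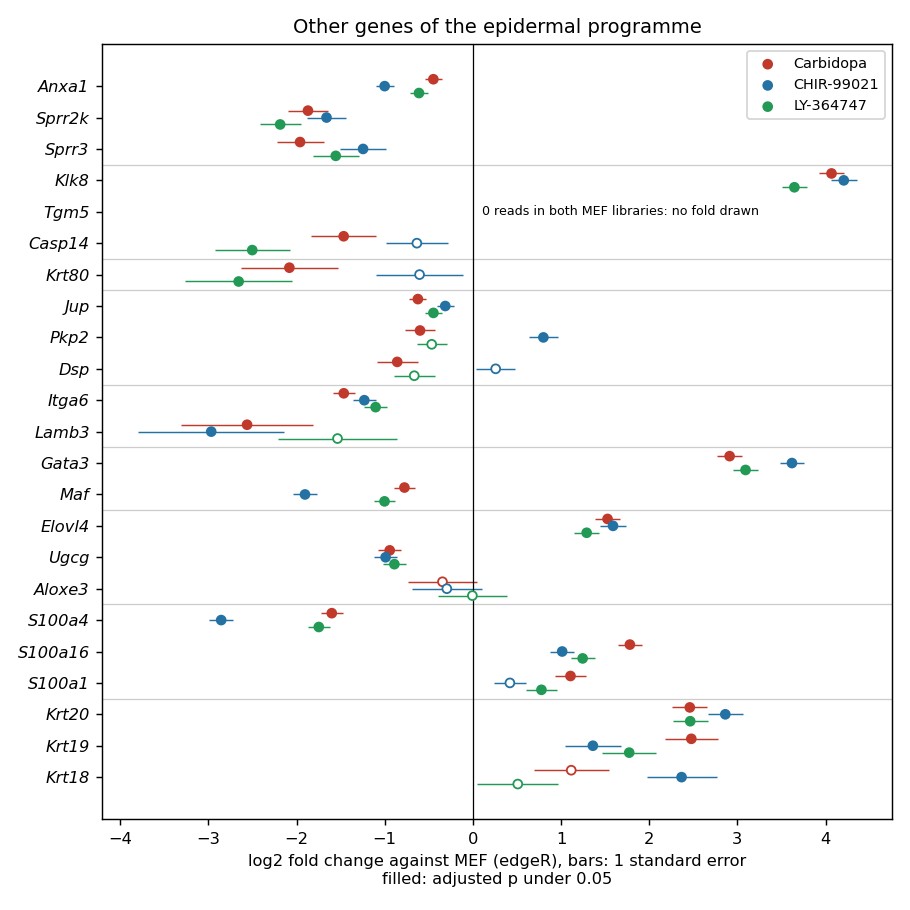
Log2 fold changes against MEF of named genes of the other lists, with bars of 1 standard error and filled points for an adjusted p under 0.05. Klk8 and Gata3 lie between 2.91 and 4.21 with all 3 molecules, and Sprr2k and Sprr3 between -2.19 and -1.25. Tgm5 has no point because it had 0 reads in MEF.

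The genomic surroundings of Sprr1a, Ivl and Flg did not move as a block. Between S100a1 and S100a10 (chr3:90511034-93564643) the annotation holds 75 protein-coding genes, of which 14 had 0 reads in all libraries and 17 were tested. The 17 include Sprr1a, Ivl and Flg themselves, which were chosen with their values known, and Flg passed the filter through its carbidopa reads alone. Of the 17, 8 were higher and 3 lower than MEF with carbidopa, 4 higher and 5 lower with CHIR-99021, and 6 higher and 4 lower with LY-364747. Sprr1a and Ivl are among those higher with each molecule, and Flg among those higher with carbidopa. CHIR-99021 was lower than carbidopa in 8 of the 17, Flg among them, and higher in 1, which was Sprr1a. The S100 genes at the ends of the cluster, which encode calcium-binding proteins of many cell types, gave 4 of the 8 that were higher with carbidopa. Of 13 S100 genes 9 were tested, with 4 higher and 1 lower for carbidopa, 1 and 2 for CHIR-99021 and 3 and 1 for LY-364747, and medians of 0.40, -0.14 and 0.23. With 1 library left out, 1 to 2 were higher and 1 to 2 lower with CHIR-99021, 1 to 3 higher with LY-364747 (1 without MEF replicate 2), and 3 to 6 higher with carbidopa (6 without carbidopa replicate 2). S100a16 rose with all 3 molecules (log2 fold change 1.78, 1.01 and 1.24), and S100a1 with carbidopa (1.11, adjusted p = 0.0008) and LY-364747 (0.78, adjusted p = 0.00768). S100a4, which marks fibroblasts and macrophages among others, fell by 1.60, 2.86 and 1.75 on the log2 scale.

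For each of the 10 genes, the most alike gene was sought among other genes with a mean of at least 1 CPM over the 8 libraries. Genes of lower mean level were not searched, so a closer match among them would be missed. For Sprr1a the gene whose log2 level ran most like it was Wee1, a cell cycle kinase (Pearson r = 0.998), and for Ivl it was Ehd4 (r = 0.999). Among the 10 genes themselves, Sprr1a and Ivl had r = 0.982 with each other, and Krt1 and Dmkn r = 0.9998. Krt1 and Dmkn had no reads outside the carbidopa libraries, so a high r between them follows largely from those shared zeros. For Sbsn the most alike gene was Rom1 (r = 0.987), for Perp Mrpl1 (r = 0.983), for Krt10 Mxi1 (r = 0.961) and for Flg Mrpl23 (r = 0.934). For Krt1 and Dmkn it was Gm26751 (r = 0.896 and 0.898), for Krt5 Tmem185b (r = 0.893) and for Krt14 Trdmt1 (r = 0.883). The libraries form 4 groups of 2, so these coefficients mostly describe differences between groups, and they are given without a p.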

How the data were processed

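RNA-seq counts of 8 mouse libraries, 2 per group, were analysed. The authors mapped 150-bp paired-end reads to mm10 with STAR 2.4.2a, counted them per gene with featureCounts, and deposited whole-number counts without normalization. The labels name a SMARTER kit and the methods a NEBNext kit. The annotation release and the strand setting of the counting are not given in the sources used here, and the handling of reads with several matches is not given either. Groups and replicate numbers were taken from the sample titles.

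The counts were tested in R 4.3.3 with edgeR 4.0.16 (TMM, filterByExpr by group, quasi-likelihood test, 1 fit of 4 groups over all 8 libraries, Benjamini-Hochberg adjusted p under 0.05), and the coefficient of biological variation was 11.0%. Standard errors are the log2 fold change over the root of F. Alternatives were DESeq2 1.42.0, RLE size factors, other filters, a replicate block, fits of single pairs of groups and the omission of each library in turn. The code was tested on simulated data. A count of 0 allows up to 3 reads, or 0.140 to 0.223 CPM per library. A fold against a group with 0 reads in both libraries is a bound against 3 reads per library, and against 1 to 3 pooled reads it is a ratio with an exact interval. The reads carry no molecular identifiers and may repeat a molecule, so intervals cover counting error only. No 2 libraries of a group agreed within sampling noise.

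Gene positions, exon lengths and 75-base words are from GENCODE M21 (GRCm38), and promoters from RefSeq (GRCm38.p6). Krt10 and Krt5 each overlap a gene on the opposite strand. The 10 genes and the gene lists were chosen with earlier results of these data known. The named genes are the 10, up to 3 tested genes of each list with the smallest p against MEF, and a most correlated gene for each of the 10. The last was sought among genes with a mean of at least 1 CPM. Some genes that this rule names are not reported here.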

Additional observations from a re-analysis of the deposited data

How the results depend on the processing

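Against MEF, 20 fold changes of the 10 genes could be compared across the alternatives. Of these, 3 changed sign under at least 1 alternative, 7 lost and 1 gained a call. Between treatments it was 4, 6 and 13 of 25, and among the list genes 3, 12 and 6 of 75. All sign changes but 1 came from leaving out a library. With each library left out in turn, the log2 fold change of CHIR-99021 against LY-364747 ran from -0.12 (without CHIR-99021 replicate 1) to 0.18 for Ivl, also below 0 without LY-364747 replicate 1 (-0.095), and from -0.67 to 0.19 (without LY-364747 replicate 2) for Sbsn. Against MEF, Sbsn ran from -0.065 (without CHIR-99021 replicate 1) to 0.30 with CHIR-99021 and from -0.063 (without LY-364747 replicate 2) to 0.79 with LY-364747, and Krt10 from -0.26 (without LY-364747 replicate 1) to 0.61 with LY-364747. Perp ran from -0.15 (without carbidopa replicate 2) to 0.37 for CHIR-99021 against carbidopa, and from -0.36 to 0.16 (without carbidopa replicate 1) for LY-364747 against carbidopa. Aloxe3 against MEF ran from -0.67 to 0.031 with carbidopa, -0.62 to 0.084 with CHIR-99021 and -0.47 to 0.37 with LY-364747, each highest without MEF replicate 1. It was also above 0 for LY-364747 without LY-364747 replicate 2 (0.35) and without a filter on low counts (8.81e-05).

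Genes called across the whole table moved in some settings. With the compared groups alone, 1027 genes differed between CHIR-99021 and carbidopa (2227 in the full fit), 3673 between CHIR-99021 and LY-364747 (2143) and 0 between LY-364747 and carbidopa (2). In the last comparison DESeq2 called 16 genes and the fit without a filter 329. Of the 10 genes, 5 were called for carbidopa against MEF with at least 10 counts in every library, since only 5 could be tested. For CHIR-99021 against carbidopa, 2 were called by DESeq2 and 2 with that filter (7 in the full fit), and for LY-364747 against carbidopa 2 by DESeq2 and 6 without a filter (0). Apart from the filter of 10 counts and the smaller fits, the cause was not tested. By DESeq2 the calls of Flg and Krt1 for carbidopa against MEF were lost.

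Leaving out 1 library at a time gave 3142 to 7996 genes for carbidopa against MEF, 3433 to 7800 for CHIR-99021, 2841 to 6519 for LY-364747, 715 to 4632 for CHIR-99021 against carbidopa, 2 to 3816 for LY-364747 against carbidopa (3816 without carbidopa replicate 2) and 663 to 4228 for CHIR-99021 against LY-364747. Of the 10 genes it gave 6 to 9, 2 to 3, 2 to 3, 2 to 8, 0 to 7 and 0 to 2. A group left with 1 library is assumed to vary like the others.

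Between groups, the difference of replicate 1 from replicate 2 was at most weakly correlated over genes (-0.161 to 0.128). Weak values cannot tell whether libraries with the same number share a source, and the sources used here do not state it. A replicate block gave 5473, 5722 and 4424 genes for carbidopa, CHIR-99021 and LY-364747 against MEF (5717, 5878 and 4694 without it). With the block, Perp was at 0.40 for carbidopa against MEF and lost its call, and Dsp at -0.67 for LY-364747 against MEF gained one (adjusted p = 0.0259, edgeR). No other call of a gene named against MEF changed with the block.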
